A study of Mus musculus with 4 samples.

Results

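The Ugt1a locus on chromosome 1 was examined in ChIP-Seq data for acetylation of lysine 16 of histone H4 (H4K16ac) in mouse liver. The data came as 2 lists of islands, stretches where ChIP reads exceed the input, for 1 mutant (MT) and 1 wild-type (WT) mouse. Islands that overlap the stretch from 89.9 to 90.16 Mb, in the coordinates of the lists, were taken, which gave 4 of the 28377 MT islands and 5 of the 26227 WT islands. The stretch was selected on measured values, the many input reads of a long MT island there, so the input counts and the MT to WT contrast below are descriptions and carry no test. The 7 genes of interest were Ugt1a1, Ugt1a2, Ugt1a5, Ugt1a6a, Ugt1a7c, Ugt1a9 and Ugt1a10. The MT mouse was labelled SIRT1 KO, which by the paper is a targeted deletion of Sirt1 exons in mice bred from heterozygous parents. The WT mouse was labelled wild type. Both were 3 months old, of a mix of 129, FVB and Black Swiss stock, so the mice need not be alike outside Sirt1. Each genotype had 1 H4K16ac ChIP library and 1 input library, made from the same kind of chromatin with no antibody step. Reads over Sirt1 and over liver marker genes were not analysed here, so genotype and tissue rest on the labels. With 1 mouse per genotype no value has a replicate check, and intervals cover counting error only.

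UDP-glucuronosyltransferases of the 1A family attach glucuronic acid to bilirubin, hormones, phenols and drugs, which makes them soluble enough for bile and urine. The genes share 1 locus. Each has a first exon and promoter of its own, and all are spliced to the same set of last exons, so the members differ in the part that binds the substrate and share the part that binds UDP-glucuronic acid. Ugt1a1 is the enzyme that conjugates bilirubin and is the member nearest to the shared exons. H4K16ac loosens the packing of nucleosomes and marks active chromatin, and SIRT1 is one of the enzymes that removes it.

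The submitters' processing notes name the mouse build mm8 for the lists, while the stretch had been described in mm9, and the only gene table at hand was of GRCm38.p6 (RefSeq). Gene coordinates were not converted between the builds one by one. Instead, the gene starts around the locus were slid along the islands as a block, and the shift at which most of them fell in islands was taken. The Ugt1a genes and Dnajb3, Mroh2a and Hjurp were left out of this match. Of 44 starts within 2 Mb on either side, 16 fell in MT islands and 14 in WT islands at a shift of 1831 kb. The sum over both lists was 30 there, against at most 24 at any shift more than 20 kb away. The match rested on the left side, where 15 of 33 starts fell in MT islands. On the right side only 1 of 11 did, that of Spp2, and those starts alone fitted other shifts better. At the same shift 5 of the 11 starts that had been left out fell in islands of each list, beside 16 and 14 of the 44 above. In MT the starts of Ugt1a1, Mroh2a and Hjurp fell in islands of 59.2 and 21.2 kb. Such long islands hold starts at many shifts, so this count is a weak check of the placement. The names given to islands below rest on this match, and no read count depends on it.

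With this placement the order along the chromosome was Ugt1a10, Ugt1a9, Ugt1a8, Ugt1a7c, Ugt1a6a, Ugt1a5, Ugt1a2, Ugt1a1, Mroh2a, Hjurp, Trpm8 and Spp2. The gene table also lists Ugt1a6b, between Ugt1a7c and Ugt1a6a. At this shift 3 of the 7 genes of interest had their start in an island, the same 3 in both lists: Ugt1a10, Ugt1a9 and Ugt1a1. Of the 44 starts used for the match, 16 fell in MT islands and 14 in WT islands. With starts within 5 Mb on either side the best shift was 1830.8 kb. There the start of Ugt1a1 falls just outside the WT island. The starts of Ugt1a7c, Ugt1a6a, Ugt1a5 and Ugt1a2 lay in no island of either list. Their nearest islands were 10.8, 27.6, 45.6 and 11.0 kb away in MT and 6.60, 28.2, 45.8 and 11.2 kb away in WT. Ugt1a8, which was not among the 7, had its start in a WT island only.

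The promoters of the 3 genes with an island at the start are shown, from 250 bases before to 50 after the gene start. At the shift used, islands of both mice hold these starts. They are RefSeq sequences of GRCm38.p6, all on the + strand of chromosome 1, and their positions in that build (chr1:88211709-88212008 for Ugt1a1, chr1:88070529-88070828 for Ugt1a9 and chr1:88055161-88055460 for Ugt1a10) cannot be compared with the island positions without the inferred shift. Capitals mark GTTAAT, one arm of the palindrome bound by the liver factor HNF1, or ATTAAC, the same letters on the other strand.
Ugt1a1: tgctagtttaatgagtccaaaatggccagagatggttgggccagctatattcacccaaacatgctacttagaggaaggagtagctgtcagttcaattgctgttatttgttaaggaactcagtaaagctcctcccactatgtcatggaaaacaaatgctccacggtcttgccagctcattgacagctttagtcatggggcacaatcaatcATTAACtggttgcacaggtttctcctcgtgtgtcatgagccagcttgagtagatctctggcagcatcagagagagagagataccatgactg
Ugt1a9: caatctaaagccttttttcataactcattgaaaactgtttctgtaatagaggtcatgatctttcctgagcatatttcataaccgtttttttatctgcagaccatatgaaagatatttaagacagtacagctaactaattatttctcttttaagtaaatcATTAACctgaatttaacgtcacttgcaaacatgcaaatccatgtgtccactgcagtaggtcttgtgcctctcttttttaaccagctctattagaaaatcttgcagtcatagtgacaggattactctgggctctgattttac
Ugt1a10: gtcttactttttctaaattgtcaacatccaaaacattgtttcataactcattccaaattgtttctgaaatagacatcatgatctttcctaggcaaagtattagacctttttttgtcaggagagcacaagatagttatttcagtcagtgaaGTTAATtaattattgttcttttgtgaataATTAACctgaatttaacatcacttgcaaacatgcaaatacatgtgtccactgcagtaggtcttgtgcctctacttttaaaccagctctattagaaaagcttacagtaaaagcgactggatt
All 8 Ugt1a promoters of the table were searched on both strands. The half-site was in 4 of them, these 3 and that of Ugt1a6a, and in 7.10% of all 32851 promoters of the same length. It lay 41 bp upstream of the start of Ugt1a1, 91 bp upstream in Ugt1a9, and 100 and 71 bp upstream in Ugt1a10. The core GCGTG of the Ah receptor, a sensor of aromatic pollutants, was in the promoters of Ugt1a8 and Ugt1a5, against 32.4% of all promoters. The E-box CACGTG, which the clock proteins bind, was in none of the 8 and in 7.15% of all. The promoters of Ugt1a9 and Ugt1a10 shared a run of 32 identical bases, while no other pair shared more than 11. These matches are letters only, and binding was not measured.

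The islands of the stretch were of 2 kinds. Upstream of Ugt1a1 they were short, with at most 15.8 input reads per kb and a fold from 1.96 to 3.95. From the start of Ugt1a1 rightwards they were long, with input several times the usual level and ChIP only slightly above it, and this held in both mice. The short islands stand first here.

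Ugt1a9 conjugates bulky phenols and fatty acids. Its MT island spanned 89900801 to 89906400, with 215 ChIP reads against 54 input reads. The WT island spanned 89901201 to 89906200, with 178 ChIP reads against 41. Input was thus 9.64 reads per kb in MT (95% exact Poisson interval 7.24 to 12.6) and 8.20 in WT (5.88 to 11.1). The authors' fold, which is the ChIP over the input after scaling for library size, was 3.77 in MT and 3.95 in WT. In both lists this island was among the more enriched, with a fold above that of most others, 95.7% of islands having at most this fold in MT and 95.7% in WT. After scaling for library size, the MT over WT ratio of ChIP reads per kb was 1.03 (95% exact interval 0.841 to 1.26), so no difference was detectable at this depth.

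The next short island, between the starts of Ugt1a7c and Ugt1a6a, spanned 89936801 to 89938200 in MT, with 48 ChIP reads against 14 input reads. In WT it spanned 89935201 to 89937600, with 63 ChIP reads against 25. The fold was 3.25 in MT against 2.29 in WT. Scaled ChIP reads per kb had an MT over WT ratio of 1.25, with an interval of 0.839 to 1.85 that includes 1. The WT list alone had an island at the start of Ugt1a8, from 89918201 to 89919400, with 41 ChIP and 19 input reads and a fold of 1.96. Its reads in MT are not listed, so the level there could not be compared.

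Just outside the stretch on the left lay the island that holds the start of Ugt1a10, 14.0 kb from the Ugt1a9 island in MT. In MT it spanned 89884601 to 89886800, with 67 ChIP reads against 30 input reads. In WT it spanned 89884401 to 89886800, with 101 ChIP reads against 23. The fold was 2.11 in MT and 3.99 in WT. Scaled ChIP reads per kb were lower in MT, at 0.692 times the WT value (0.50 to 0.951). Of all 14719 regions with islands of both lists 5.29% had a ratio this low or lower. Just outside on the right the nearest island, at the start of Spp2, a secreted phosphoprotein gene, lay 113 kb from the last MT island and 125 kb from the last WT island. Its ChIP reads numbered 190 against 72 input reads for MT, and 159 against 53 for WT. Its ratio of ChIP reads per kb was 0.952 (0.767 to 1.18).

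Between the short and the long islands, no island was listed over 104 kb in MT and 105 kb in WT. The starts of Ugt1a6a, Ugt1a5 and Ugt1a2 fell in this gap. Reads outside islands were not analysed here, so low acetylation and acetylation just under the threshold of the lists look the same.

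The longest MT island of the stretch, 2nd in length in the whole MT list, began at Ugt1a1. It ran from 90042601 to 90101800, a length of 59.2 kb, and held 4291 ChIP and 3810 input reads. The start of Ugt1a1 lay 0.358 kb inside its left end, at a resolution of 200 bp. In WT an island began at almost the same place, 90042801, but ended at 90055800 after 13.0 kb, with 827 ChIP and 641 input reads. By the placement above the MT island covered the whole of Ugt1a1, and with it the last exons that all Ugt1a genes use. The WT island covered them as well. Ugt1a1 was 13.6% of the MT island, Mroh2a, a gene of unclear role named for its HEAT-like repeats, took 59.6% and the 3′ part of Hjurp 20.2%. The WT island ended 2.22 kb before the start of Mroh2a. The MT island thus lay for the larger part over neighbours of the Ugt1a genes, and the WT island did not reach Mroh2a.

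The second long island followed 0.8 kb further in MT. It held the start of Hjurp, which encodes the chaperone that places the centromeric histone CENP-A. It ran from 90102601 to 90123800 in MT, 21.2 kb, with 1614 ChIP and 1103 input reads. In WT it had the same start and ended at 90111800 after 9.2 kb, with 726 ChIP and 465 input reads. WT therefore had no island over the 46.8 kb between the Ugt1a1 island and the Hjurp island, where MT had one almost throughout.

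**Figure D1:**
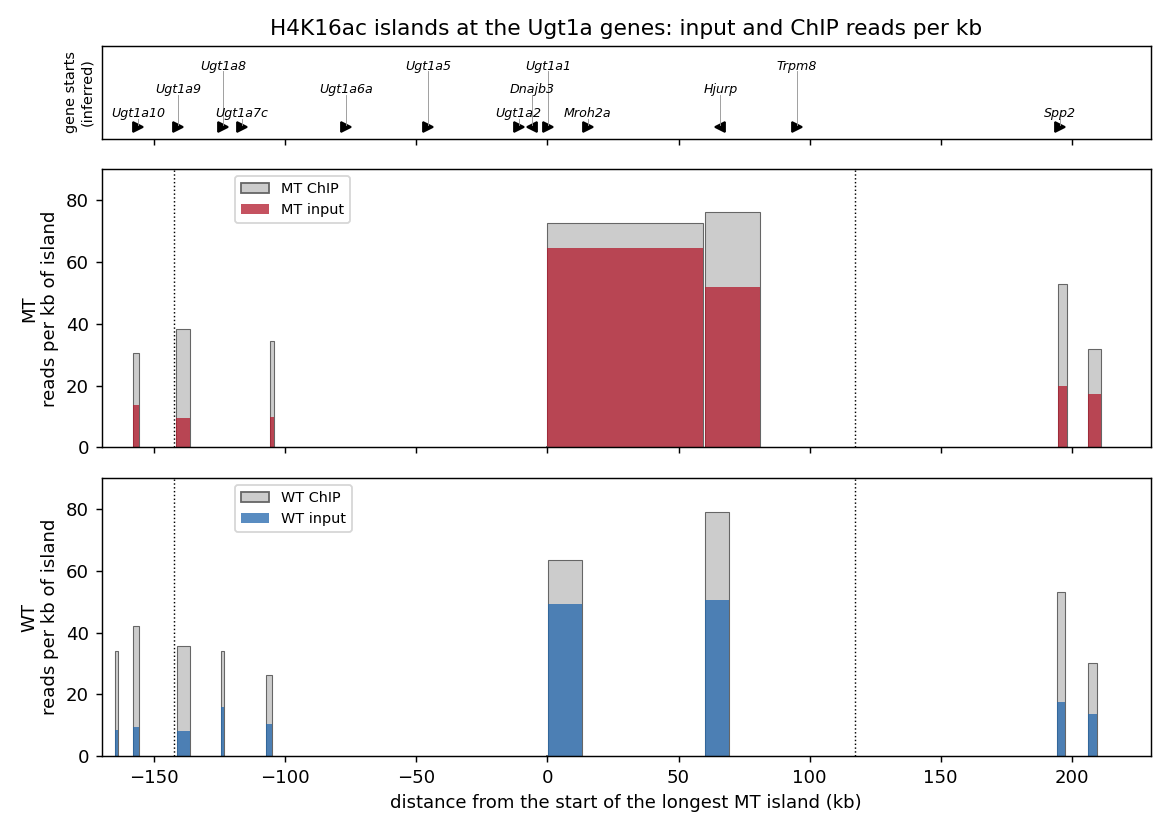
Islands of MT (middle) and WT (bottom), with distance in kb from the start of the longest MT island on the x axis and unscaled reads per kb of island on the y axis. Grey bars are ChIP and coloured bars in front are input, dotted lines mark the ends of the stretch, and triangles at the top are inferred gene starts pointing along the strand. Input stood at 64.4 and 52.0 reads per kb in the long MT islands and at 49.3 and 50.5 in the long WT islands, above the short islands of both.

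Input was high in both mice, not in MT alone. In MT it was 64.4 reads per kb in the Ugt1a1 island (62.3 to 66.4) and 52.0 in the Hjurp island (49.0 to 55.2). In WT it was 49.3 (45.6 to 53.3) and 50.5 (46.1 to 55.4). Over all islands the mean was 15.4 reads per kb in MT and 14.1 in WT, so relative to these means the long islands stood at 4.18 and 3.38 in MT, and at 3.49 and 3.58 in WT. Of all islands, 0.155% in MT and 0.233% in WT had at least 2 times the mean of their list, against 2 of 4 and 2 of 5 in the stretch. Nothing is read from these counts, since the input chose the stretch. Counting the Ugt1a1 island itself, 6 MT islands had at least its MT value of 64.4, and 8 WT islands had at least its WT value of 49.3.

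Long islands with input at or above 49.3 reads per kb were few. That limit is the lowest input of the long islands of the stretch, and the limit of 9 kb was also chosen after seeing the data. The long islands of the stretch were therefore bound to be counted. Of any length, 10 MT and 8 WT islands reached that input. Among islands over 9 kb there were 4 in each list, of 728 in MT and 387 in WT. In each list 2 of the 4 were those at Ugt1a1 and Hjurp. The others lay on chromosome 11 and, from 37891201 to 37907800 in both lists, on chromosome 7, where input was 110 reads per kb in MT and 102 in WT. In contrast to the Ugt1a1 island, the chromosome 7 island had the same ends in both mice.

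**Figure D2:**
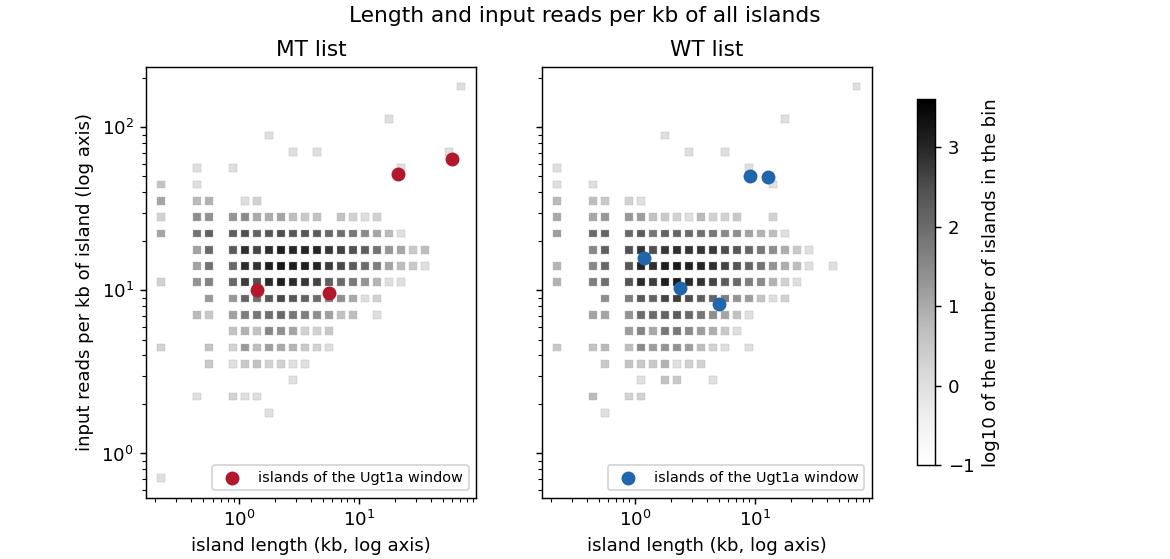
All islands of the MT (left) and WT (right) list by length in kb and input reads per kb, both on log axes, with grey squares shaded by the log10 number of islands and coloured points for the islands of the stretch. The 2 long islands of each list lie above the mass of islands and the short ones within it; 1 MT island without input reads is drawn at the bottom left.

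What differed between the mice was mainly the length listed. The Ugt1a1 island was 4.55 times and the Hjurp island 2.30 times as long in MT as in WT, and 15.0% of shared regions were at least 2 times as long in MT. Scaled input reads were 5.45 times the WT number in the Ugt1a1 island (5.01 to 5.94) and 2.18 times in the Hjurp island (1.95 to 2.43), against 14.5% of regions with a ratio of at least 2. The values at Ugt1a1 were reached by 1.47% of regions in length and 0.897% in input reads. For those at Hjurp the shares were 9.87% and 11.8%. Nothing is read from these shares, since the long MT island chose the stretch. Divided by length, the input ratio fell to 1.20 (1.1 to 1.30) and 0.944 (0.847 to 1.05). None of the 4 shared regions of the stretch reached a ratio of 2 per kb, which 0.992% of all shared regions did, and 21.6% had a ratio of 1.20 or more. The quartiles of shared regions were 0.863 and 1.16, so the ratio at Ugt1a1 was just above the bulk and that at Hjurp within it. The 2 values at Ugt1a1 are over unequal stretches, 59.2 kb in MT and 13.0 kb in WT, and WT input beyond its island is not listed.

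ChIP reads behaved alike. They were 72.5 per kb in MT and 63.6 in WT in the Ugt1a1 island, and 76.1 and 78.9 in the Hjurp island. Scaled, the MT over WT ratio was 1.09 at Ugt1a1 (1.01 to 1.17) and 0.922 at Hjurp (0.844 to 1.01). A ratio of at least 2 was reached by 0.340% of shared regions and by none of the 4 in the stretch. A ratio of 1.09 or more was found in 31.1% of regions, so the value at Ugt1a1 does not stand out from the spread between regions.

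**Figure D3:**
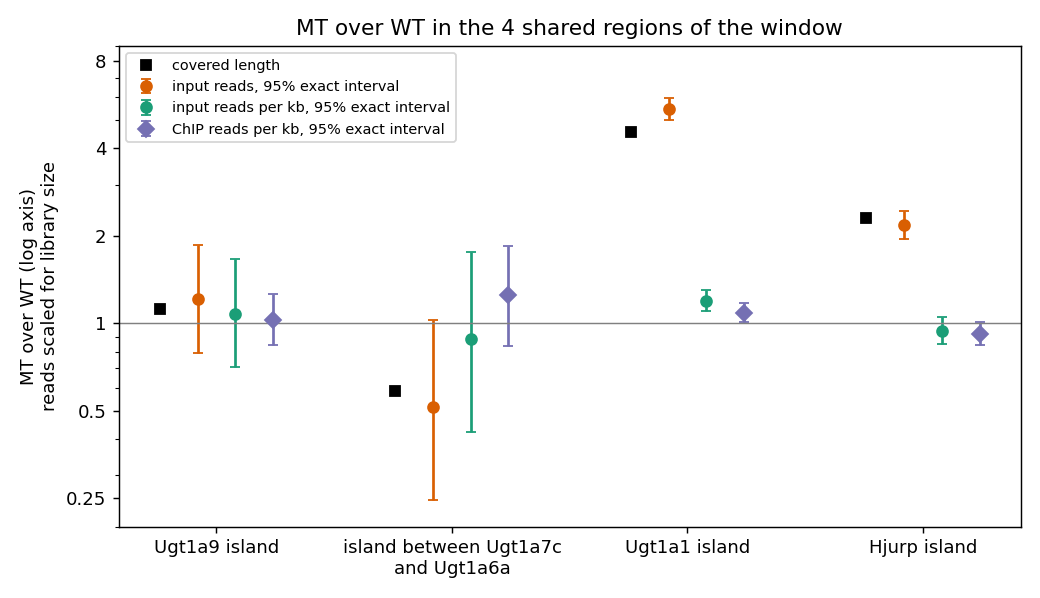
MT over WT ratios on a log axis for the 4 shared regions of the stretch, with squares for covered length and other symbols for reads scaled for library size, with 95% exact intervals for counting error. At Ugt1a1 length and input reads lie at 4.55 and 5.45, while input and ChIP reads per kb lie at 1.20 and 1.09.

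Enrichment over the input was weak in the long islands. The fold was 1.07 in MT (95% exact interval 1.02 to 1.11) and 1.17 in WT (1.06 to 1.30) at Ugt1a1, and only 1 island in each list had a lower fold. At Hjurp it was 1.39 in MT (1.28 to 1.50) and 1.42 in WT (1.26 to 1.60). The median fold over all islands was 2.02 in MT and 2.08 in WT. The authors' false discovery rate of the Ugt1a1 island was 3.97e-05 in MT and 1.09e-05 in WT, under the limit of 0.001 set for the lists.

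Subtracting the scaled input gave the excess of ChIP reads, an absolute measure that can be read beside the fold. At Ugt1a1 the excess was 4.50 ± 1.56 reads per kb in MT (counting SE) and 9.36 ± 3.08 in WT. At Hjurp it was 21.2 ± 2.52 in MT and 23.3 ± 3.90 in WT. The Ugt1a9 island had 28.2 ± 2.96 in MT and 26.6 ± 3.02 in WT. Thus the Hjurp island, with a fold of about 1.4, had an excess per kb close to that of the Ugt1a9 island with a fold near 4. The Ugt1a1 island had the lowest excess of the stretch in each mouse. In WT the next lowest excess was 14.8 ± 4.02, between Ugt1a7c and Ugt1a6a, so counting error does not settle the rank there. The flanks had 16.7 ± 0.602 in MT and 15.7 ± 0.766 in WT. At Ugt1a10, outside the stretch, the excess was 16.05 ± 4.56 in MT and 31.5 ± 4.73 in WT.

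**Figure D4:**
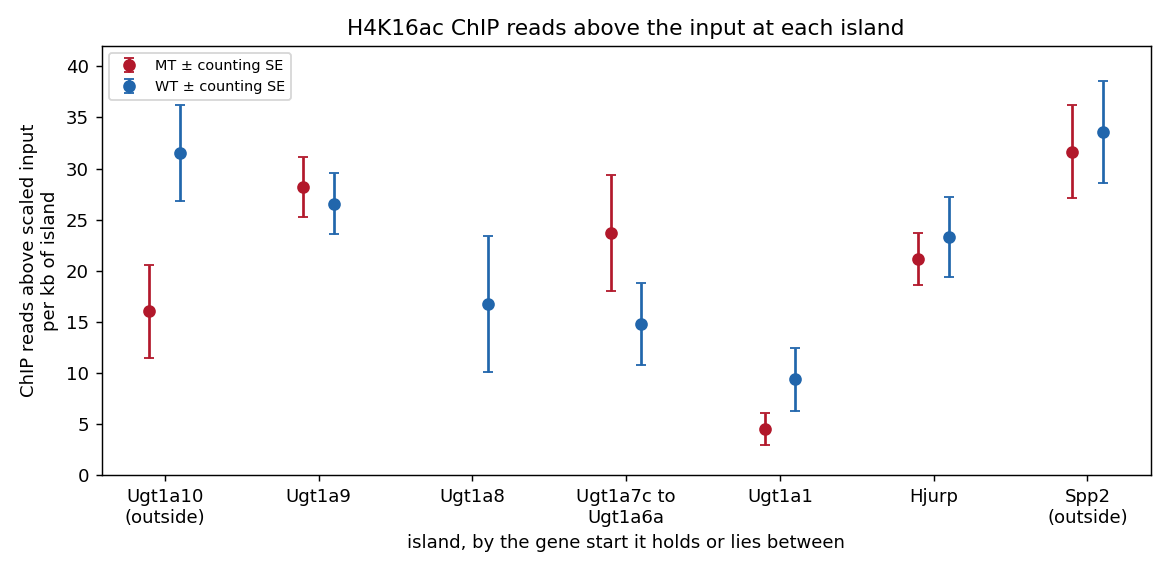
ChIP reads above the scaled input per kb of island, MT and WT side by side, with error bars of 1 counting SE, for the islands of the stretch and the nearest one on either side. The Ugt1a1 island is lowest in both mice (4.50 and 9.36), in WT not clearly so given the error bars. The Ugt1a10 island is where the mice are furthest apart (16.05 and 31.5).

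The flanking 1 Mb on each side held 44 MT islands, 41 of them on the left, and 32 WT islands, 28 of them on the left. Their input was 15.8 reads per kb in MT and 15.1 in WT, close to the mean of each list, and no single one exceeded 22.1 in MT or 20.6 in WT. Input per covered kb of the stretch was 3.61 times that of the flanks in MT (3.43 to 3.80) and 2.56 times in WT (2.36 to 2.77). Without the islands over 9 kb, an alternative chosen after seeing the data, it fell to 0.615 in MT and 0.654 in WT, so the short islands, as a sum, had less input per kb than the flanks. ChIP per covered kb was 2.11 times the flanks in MT (2.03 to 2.20) and 1.84 times in WT (1.74 to 1.95). Without the long islands it was 1.13 and 1.01.

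Over the whole stretch the islands covered 87.4 kb in MT and 30.8 kb in WT. The input reads in them numbered 4981 for MT against 1191 for WT. The MT over WT ratio of scaled input per covered kb was 1.35 (1.27 to 1.44), a ratio of sums over islands called separately in each mouse. Without the longest MT island, but with the WT island at Ugt1a1 kept, it was 0.985. A false discovery rate limit of 1e-05 removes the Ugt1a1 islands of both lists and the WT island at Ugt1a8. With that limit the ratio was 1.19 (1.07 to 1.32). Of the 14719 shared regions, 1602 (10.9%) had a ratio of their own of at least 1.35, none of them in the stretch. The widest of these lay on chromosome 14 from 74546801 to 74564600. It had 18.3 input reads per kb in MT against 11.5 in WT, which after scaling was 1.46 times the WT value. ChIP per covered kb of the stretch was 1.13 times the WT value (1.07 to 1.19). By the authors' counts, ChIP over scaled input of the stretch was 1.17 in MT (1.13 to 1.22) and 1.40 in WT (1.30 to 1.51). The label of excess mutant input thus held for the number of reads listed, while per listed kb none of the 4 shared regions of the stretch had a ratio above 1.20. At Ugt1a10, just outside, the input ratio per kb was 1.31, with an interval of 0.733 to 2.35 that includes 1.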

How the data were processed

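H4K16ac ChIP-Seq of liver was used, with 1 ChIP and 1 input library for 1 MT and 1 WT mouse. Per the labels, reads were aligned with Bowtie 0.12.7 and islands were called with SICER 1.03 in build mm8. By the titles of the lists, duplicates were removed, windows were 200 bp wide with a gap size of 400 bp, and a false discovery rate of 0.001 was applied. The deposited counts are whole ChIP and input reads per island. The authors' p-value and false discovery rate compare ChIP with scaled input, and the authors' fold divides ChIP by input reads and multiplies this ratio by 1 constant per list, from which a ChIP library 1.06 (MT) and 1.10 (WT) times the size of its input was recovered. Genes were named from RefSeq, GRCm38.p6.

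MT and WT islands that shared any base were put into 1 region. The input libraries were set equal in reads per covered kb over the 14719 regions with islands of both lists (MT over WT 1.09, for ChIP 1.05 with the constants above). Ratios have exact conditional 95% intervals. Library totals are not in the lists, whose islands had medians of 74 ChIP reads and 35 input reads for MT, and of 63 and 27 for WT. Scripts in Python 3.11.15 with scipy 1.17.1, numpy 2.4.6 and pandas 2.3.3 were tested on simulated data, where changed regions were recovered but the scaling by sums overestimated the library ratio when many regions changed one way. Named were the 7 genes, all islands of the stretch and up to 5 regions elsewhere, of which the widest is given. Other UDP-glucuronosyltransferase genes and regulators were not analysed here, for want of gene positions in mm8. The stretch, its genes and the motifs were chosen with earlier results of these data known.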

Additional observations from a re-analysis of the deposited data

How the results depend on the processing

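Among 54 ratios under other settings, 27 lay inside the counting interval of the value in the report, 18 lay outside it and 9 changed sides of 1. Why they changed was not tested, apart from settings that drop islands or fix a level by their construction. No paired analysis was possible because each genotype had 1 mouse.

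The MT over WT ratio of input per covered kb, 1.35, was 1.47 without scaling and 1.08 with totals over all islands as the scale. It was 1.19 with the false discovery rate limit at 1e-05, which removes the Ugt1a1 islands of both lists and the WT island at Ugt1a8. At a fold of at least 2, which leaves short islands only, it was 0.999. Without the longest MT island, but with the high-input WT island at Ugt1a1 kept, it was 0.985. With 2 settings added once the data had been seen, it was 1.12 over the islands over 9 kb and 0.902 without them. The ChIP ratio, 1.13, was 0.920 with totals over all islands as the scale, which counts the larger MT coverage as depth. Without the longest MT island, its WT counterpart again kept, it was 1.07, and over the islands over 9 kb it was 1.003.

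Input of the stretch over its flanks in MT, 3.61, was 3.11 with the right flank only, which holds 3 islands, 2.79 at the stricter false discovery rate and 0.615 without the islands over 9 kb. In WT, 2.56, it was 2.25 at the stricter rate and 0.654 without those islands. The ChIP ratio to the flanks in MT, 2.11, was 1.79 with the right flank only, 1.91 at the stricter rate and 1.13 without the islands over 9 kb. In WT, 1.84, it was 1.54, 1.56 and 1.01 in the same order.

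ChIP over scaled input of the longest MT island, 1.07, was 0.520 with all islands of the list as the scale, which sets the average island at 1, and 1.13 without scaling. For the whole stretch these values were 0.572 and 1.24 in MT and 0.670 and 1.54 in WT.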
